A study of Mus musculus with 8 samples.

Results

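Ketogenesis and fatty acid oxidation genes were followed in mouse colon epithelium grown in culture or taken from the animal. The set holds 9 genes of the 32285 listed in the deposited matrices, chosen by name: the butyrate carriers Slc5a8 and Slc16a1, the nuclear receptors Ppara and Pparg, the carnitine transferase Cpt1a, the acyl-CoA dehydrogenases Acads, Acadm and Acadl, and the kinase Pdk4. The study took single-cell RNA profiles of epithelium from male young adult C57BL/6 mice, with 2 libraries in each of 3 groups. Colon tissue epithelium came from freshly isolated crypts. Organoid epithelium came from crypts grown alone in Matrigel, a basement membrane gel, in full medium with the Wnt activators Wnt surrogate, CHIR-99021 and R-spondin 1 and the BMP inhibitor noggin. Assembloid epithelium came from organoids set into Matrigel with cultured primary colon stromal cells, on a shaker, in medium without these 4 factors. The assembloids were taken apart with Liberase TL, DNase I and TrypLE, and the organoids and crypts with TrypLE, so for assembloids the way of dissociation cannot be told apart from the group. Crypts were first released from tissue with EDTA and dithiothreitol, a step that likewise goes with the tissue group.

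The mature colonocyte burns butyrate and other short-chain fatty acids that bacteria release into the gut lumen. They are carried into the cell by monocarboxylate transporters, oxidised in mitochondria and in part turned into ketone bodies, while longer fatty acids need the carnitine shuttle to reach the same pathway. The nuclear receptors of the PPAR family bind fatty acids and switch on many genes of this pathway, and pyruvate dehydrogenase kinases shut the competing entry of pyruvate. In crypts this metabolism is a feature of the differentiated cells near the surface, and Krt20 marks those cells while Lgr5 marks stem cells at the base.

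The matrices held 5984 to 32932 barcodes per library. Barcodes with at least 500 genes, at most 10% mitochondrial counts and more UMIs of 5 epithelial than of 12 fibroblast, immune and endothelial markers were taken as epithelial cells, which left 4303 to 27849 cells and 36944767 to 187582900 UMIs per library. The median cell of the assembloid libraries held 3441 and 13892 UMIs. That of the organoid libraries held 35222 and 6908, and that of the tissue libraries 3526 and 3702. The share of barcodes kept was 38.6% and 25.4% in tissue and 49.4% to 84.6% in the cultures. Pairs of libraries shared 17 to 141 barcodes, at most 0.98% of the smaller library. All 5 epithelial markers were found in every library, summing to 4278 to 9866 CPM, which here means UMIs of a gene scaled to a library total of 1000000. The 12 non-epithelial markers were all present in assembloids, at a sum of 291 and 90.7 CPM. Their sum was 0.453 and 0.570 CPM in organoids, where 6 were at 0, and 3.76 and 3.57 CPM in tissue, where 5 were at 0. Keeping cells with no UMI of these 12 markers, a choice made after seeing the data, changed no call of the 9 genes in the 3 comparisons of whole libraries. Colonocyte markers (8 genes) summed to 2861 and 3674 CPM in tissue, 1498 and 2276 in assembloids and 91.4 and 58.3 in organoids, and goblet markers (7 genes) to 21106 and 23485, 2498 and 4831, and 375 and 499 CPM. The part of these marker differences in the results below was not tested. Fewer cells of a type and less RNA per cell cannot be told apart in such sums, which is why the same genes are also given below within cells that carry Krt20 or Lgr5.

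Tissue epithelium expressed Slc5a8, Ppara, Pdk4, Cpt1a and Slc16a1 at higher levels than both cultures. Slc5a8 differed most, from 231 CPM in tissue to 2.16 in assembloids and 0.121 in organoids. Of the 9 genes, 6 were called between assembloids and tissue (5 lower and 1, Pparg, higher in assembloids), read against 50.5% of all 19324 genes tested and 23.3% called lower. Between organoids and tissue Slc5a8, Ppara, Cpt1a, Slc16a1 and Acads were called, all lower in organoids. That is to be read against 47.4% of genes called in either direction and 23% called lower. Pdk4, whose organoid UMIs alone would not have kept it in the fit, is given there by level alone. The median log2 difference over the 9 genes, Pdk4 included, was -1.02 in assembloids and -1.30 in organoids, where the median over all genes was 0.03 and 0.06. A gene was called at a Benjamini-Hochberg adjusted p under 0.05 in edgeR's quasi-likelihood test on UMIs summed per library, scaled by the trimmed mean of M values (TMM). The p-values measure the spread between the 2 libraries of each group. Where a library was left out, its group kept 1 library, which was assumed to vary like the other groups.

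**Figure D1:**
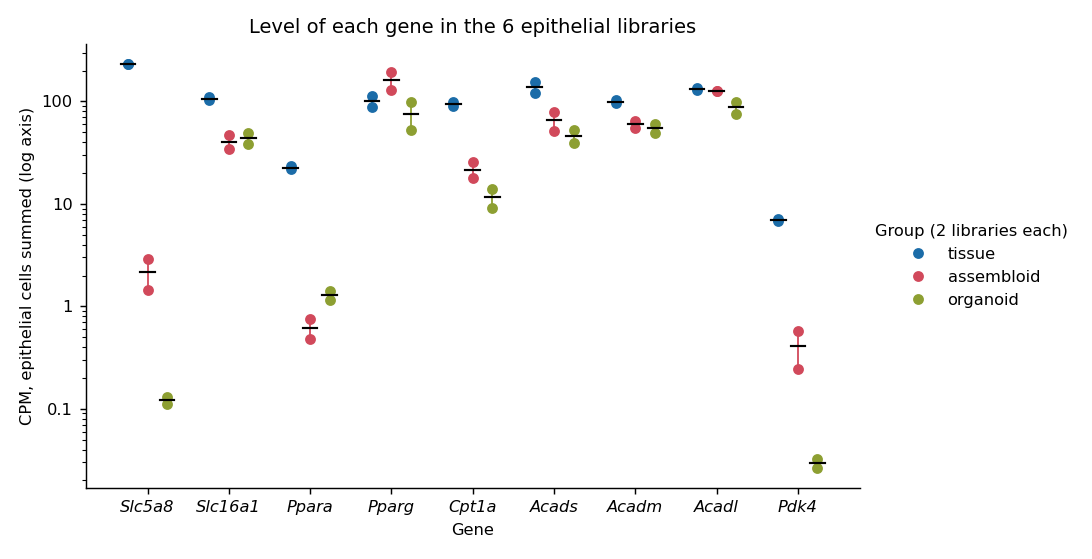
Level of each gene in CPM (log axis) in the 6 epithelial libraries. Points are libraries, black bars the mean of the 2 libraries of a group. Slc5a8, Ppara, Pdk4 and Cpt1a lay lower in every culture library than in both tissue libraries. The means of Acadl were 132 CPM in tissue, 126 in assembloids and 87.7 in organoids.

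The scaling matters for the small differences. The TMM factors were 1.16 and 1.14 in tissue and 0.828 to 1.097 in the cultures, so a fitted difference is not the ratio of the CPM printed beside it. Without TMM the median of all genes moved to -0.34 in assembloids against tissue and to -0.16 in organoids against tissue. Over the 7 comparisons with tissue or between gates, 50.6% to 55.1% of the calls were for higher genes with TMM and 23.6% to 41.4% without it. Differences below are relative to the TMM scale.

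Sequence ahead of the start site is shown for 3 genes that were lower in both cultures, the carriers Slc5a8 and Slc16a1 and the kinase Pdk4, because their CpG content differs. RefSeq's start-site table for GRCm38.p6 held all 9 genes, with 11 windows of 300 bases. The lines give 100 bases each on the gene's own strand, ahead of the annotated exons, with CpG dinucleotides in capitals. Those of Slc5a8 and Slc16a1 end at the start site of the table, and that of Pdk4 ends 31 bases before it. They lie at chr10:88885892-88885991 on the plus strand, chr3:104638564-104638663 on the plus strand and chr6:5496310-5496409 on the minus strand.
Slc5a8: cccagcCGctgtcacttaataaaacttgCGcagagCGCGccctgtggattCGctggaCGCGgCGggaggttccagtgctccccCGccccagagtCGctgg
Slc16a1: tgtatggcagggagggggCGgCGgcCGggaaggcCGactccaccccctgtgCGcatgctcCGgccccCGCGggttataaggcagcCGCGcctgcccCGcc
Pdk4: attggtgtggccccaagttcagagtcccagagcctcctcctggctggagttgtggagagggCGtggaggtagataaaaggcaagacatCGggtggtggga
The stretches of Slc5a8 and Slc16a1 held 10 and 11 CpG and that of Pdk4 held 2. In the whole 300-base windows the counts were 20, 42 and 12, where the median of all 32851 windows was 7, and 10 of the 11 windows of the set lay above it. PPAR binds with its partner RXR to a direct repeat of AGGTCA with 1 base between the copies. Such a repeat with at most 2 mismatches on either strand was found in none of the 11 windows and in 3.86% of all windows. That says only that these letters were not in these windows.

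The carriers come first. Slc5a8 (chromosome 10, 88885992 to 88929515 in GRCm38) encodes the sodium-coupled carrier that takes up butyrate at the luminal face. Its level was 231 and 231 CPM in the tissue libraries, 1.44 and 2.87 in assembloids and 0.112 and 0.129 in organoids, the last from 21 and 12 UMIs. The groups did not overlap, and the tissue libraries differed by less than 1 CPM. The log2 difference from tissue was -6.40 in assembloids (standard error 0.33, adjusted p = 9.92e-06) and -10.64 in organoids (standard error 0.41, adjusted p = 2.85e-06) in edgeR's quasi-likelihood test. Organoids lay below assembloids by a log2 difference of -4.24 (standard error 0.35, adjusted p = 6.73e-05 in the same edgeR test). The 3 calls held in all 16 alternatives tried for each.

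Slc16a1 (chromosome 3, 104638668 to 104658462) encodes the proton-coupled carrier MCT1, which moves butyrate, lactate and ketone bodies. It stood at 102 and 109 CPM in tissue, 34.3 and 46.9 in assembloids and 38.6 and 49.1 in organoids. Both cultures lay below both tissue libraries and overlapped each other. The log2 difference from tissue was -1.02 in assembloids (standard error 0.19, adjusted p = 0.0029) and -1.05 in organoids (standard error 0.19, adjusted p = 0.00252) by edgeR. Between the cultures it was -0.03 (95% interval -0.46 to 0.41), with an adjusted p of 0.921 from edgeR's test.

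The receptors went different ways. Ppara (chromosome 15, 85734983 to 85802819) encodes PPAR alpha, which drives fatty acid oxidation and ketogenesis in fasting liver. Its level was 23.4 and 21.9 CPM in tissue, 0.481 and 0.753 in assembloids and 1.14 and 1.42 in organoids. No library of one group reached the range of another, and assembloids were lowest. The log2 difference from tissue was -4.85 in assembloids (standard error 0.27, adjusted p = 1.16e-05) and -3.91 in organoids (standard error 0.25, adjusted p = 1.33e-05) by edgeR. Organoids exceeded assembloids by 0.93 (standard error 0.24, adjusted p = 0.0114 from edgeR), a call lost without assembloid replicate 1 (0.70, adjusted p = 0.0677) and with at most 5% mitochondrial counts (0.71, adjusted p = 0.0739).

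Pparg (chromosome 6, 115360951 to 115490399) encodes PPAR gamma, the receptor of fat cells that colon epithelium also expresses. It stood at 88.8 and 113 CPM in tissue, 129 and 192 in assembloids and 52.8 and 97.8 in organoids. The assembloid libraries lay above both tissue libraries, and the organoid libraries overlapped them. The 4 adipocyte markers summed to at most 1.24 CPM in every library. The log2 difference of assembloids from tissue was 1.03 (standard error 0.27, adjusted p = 0.0126 from edgeR), while organoids did not pass the test (-0.22, 95% interval -0.84 to 0.39, adjusted p = 0.521). The assembloid call was lost without TMM (0.67, adjusted p = 0.0902), without assembloid replicate 2 (0.83, adjusted p = 0.0557) and without tissue replicate 1 (0.85, adjusted p = 0.155) or 2 (1.21, adjusted p = 0.0564) in edgeR. Organoids were lower than assembloids by a log2 difference of -1.26 (standard error 0.27, adjusted p = 0.00473 from edgeR), which held in all 16 alternatives.

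Cpt1a (chromosome 19, 3322334 to 3385733) encodes the liver-type carnitine palmitoyltransferase of the outer mitochondrial membrane, the rate-limiting gate for long-chain fatty acids. It stood at 90.4 and 98.7 CPM in tissue, 17.8 and 25.4 in assembloids and 9.16 and 14.1 in organoids. The 3 groups were in that order with no overlap. The log2 difference from tissue was -1.77 in assembloids (standard error 0.21, adjusted p = 0.000275) and -2.82 in organoids (standard error 0.22, adjusted p = 3.00e-05) by edgeR, and that of organoids from assembloids was -1.04 (standard error 0.21, adjusted p = 0.00307). These 3 calls held in every one of the 16 alternatives.

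The acyl-CoA dehydrogenases, which take the first step of each turn of beta-oxidation, mostly did not pass the test. Acads (chromosome 5, 115110299 to 115119346), which acts on short chains such as butyryl-CoA, was at 122 and 154 CPM in tissue, 51.1 and 79.5 in assembloids and 53.1 and 39.4 in organoids. Acadm (chromosome 3, 153922357 to 153944632), the medium-chain enzyme, was at 103 and 96.3 CPM in tissue, 54.9 and 64.9 in assembloids and 60.7 and 49.6 in organoids. Acadl (chromosome 1, 66830839 to 66863277), the long-chain enzyme, was at 129 and 136 CPM in tissue, 125 and 127 in assembloids and 99.9 and 75.5 in organoids. The culture libraries lay below both tissue libraries in these CPM, which are not on the TMM scale. On that scale the difference of Acadl in assembloids from tissue was 0.31. How many of all genes lay below tissue in the same way was not counted. The cultures overlapped for Acads and Acadm, while both organoid libraries lay below both assembloid libraries for Acadl.

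After scaling, Acads was lower in organoids than in tissue, with a log2 difference of -1.30 (standard error 0.30, adjusted p = 0.00728 from edgeR). That call was lost without tissue replicate 2 (-1.11, adjusted p = 0.0662). The other differences of the dehydrogenases from tissue did not pass. For assembloids they were -0.72 for Acads (95% interval -1.39 to -0.04, adjusted p = 0.0718), -0.37 for Acadm (-0.91 to 0.18, adjusted p = 0.230) and 0.31 for Acadl (-0.30 to 0.92, adjusted p = 0.364) in edgeR. For organoids they were -0.59 for Acadm (-1.14 to -0.05, adjusted p = 0.0706) and -0.32 for Acadl (-0.94 to 0.29, adjusted p = 0.352). Without TMM, Acads (-1.08, adjusted p = 0.00729) and Acadm (-0.74, adjusted p = 0.0192) were called lower in assembloids by edgeR and Acadl turned to -0.07. In all, Acads was called in 6 of 16 alternatives (adjusted p of 0.00729 to 0.0421) and Acadm in 3 (0.0192 to 0.0467), among them those without organoid replicate 1 or 2. In organoids Acadm was called lower without TMM (-0.86, adjusted p = 0.0105), with DESeq2 (-0.61, adjusted p = 0.0470) and without organoid replicate 1 (-0.95, adjusted p = 0.00694), and so was Acadl without organoid replicate 1 (-0.76, adjusted p = 0.0179). Whether the 3 enzymes differed from each other in their change was not tested.

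Pdk4 (chromosome 6, 5483351 to 5496309) encodes the kinase that blocks pyruvate dehydrogenase when fat is burnt. It was rare: 336 and 250 UMIs in tissue gave 7.15 and 6.77 CPM, 41 and 63 UMIs in assembloids 0.244 and 0.578 CPM, and 5 and 3 UMIs in organoids 0.0267 and 0.0323 CPM. Exact Poisson intervals at 95%, which cover counting error only, ran from 0.00865 to 0.0622 and from 0.00666 to 0.0943 CPM for the organoid libraries. The groups did not overlap. The log2 difference of assembloids from tissue was -3.75 (standard error 0.42, adjusted p = 0.000213 by edgeR). It ran from -4.78 to -3.29 over the 16 alternatives. Nothing is rested on those with no filter or with thinned cells, where assembloid UMIs alone need not have kept Pdk4. The organoid UMIs alone would not have kept Pdk4 in the fit, so organoids are given by their levels, with no fold or test.

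**Figure D2:**
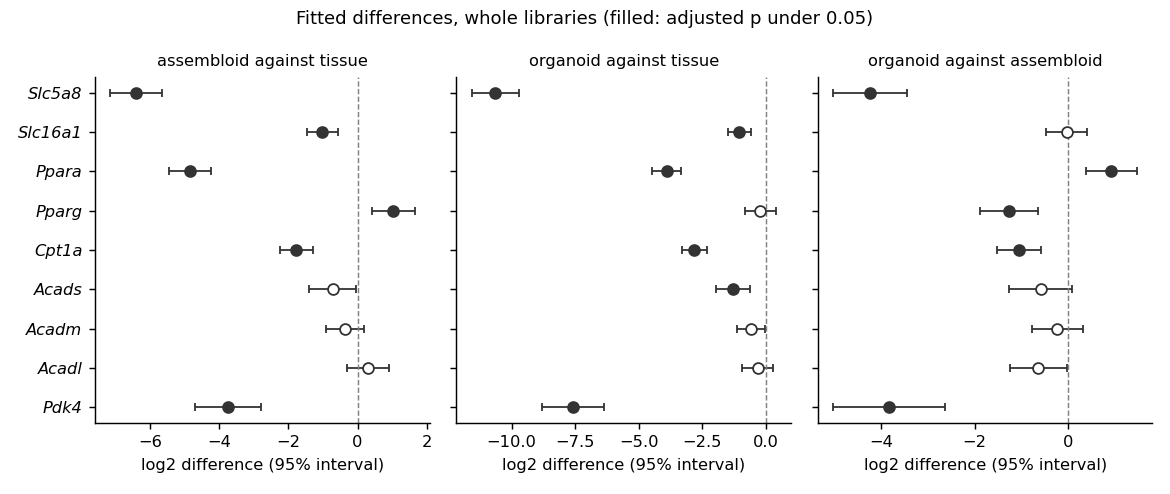
Log2 difference of the first group named over the second for each gene, from summed UMIs of whole libraries, with 95% intervals. Filled points had an adjusted p under 0.05. Slc5a8 had the most negative difference of organoids from tissue (-10.64), and Pparg had a positive one in assembloids against tissue (1.03). The organoid points of Pdk4 rest on 5 and 3 UMIs and are not read as a test. The 3 axes have different ranges.

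Between organoids and assembloids Slc5a8, Pparg and Cpt1a were called lower in organoids and Ppara higher, with Pdk4 given by level alone. Over all genes tested 54.0% were called and 29.1% were called lower, and the share of the set that was called was close to the first. The median log2 difference over the 9 genes, Pdk4 included, was -0.63, with -0.02 over all genes. The values of Acads (-0.58, adjusted p = 0.126), Acadm (-0.23, adjusted p = 0.447) and Acadl (-0.63, adjusted p = 0.0757) did not pass in edgeR, and all 3 were called lower without organoid replicate 1 (-1.02, -0.58 and -1.05). All 3 comparisons share libraries, so their calls are not independent of each other.

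The next question was whether the same differences are seen among cells that carry a UMI of the same marker. A gate of 1 UMI is not a position in the crypt, and free RNA in the droplets, whose share was not measured, can also give that UMI. Cells with at least 1 UMI of Lgr5 and none of Krt20 numbered 251 and 165 in tissue, 642 and 400 in assembloids and 3519 and 4237 in organoids. Cells with at least 1 UMI of Krt20 and none of Lgr5 numbered 738 and 1062 in tissue, 7172 and 2136 in assembloids and 18 and 7 in organoids, too few in organoids for a test. In the Lgr5 cells the median depth was 11447 and 7418 UMIs in tissue, 7258.5 and 20292.5 in assembloids and 36821 and 14776 in organoids. The 6 stem cell markers, Lgr5 among them, summed to 727 and 632 CPM in the Lgr5 cells of tissue, 223 and 166 in those of assembloids and 556 and 748 in those of organoids. The goblet markers summed to 13476 and 20572 CPM in the Lgr5 cells and to 14790 and 15507 CPM in the Krt20 cells of tissue, against 21106 and 23485 CPM in the whole libraries. Neither gate in tissue was free of goblet cell RNA. In assembloids the goblet sum was 1070 and 2488 CPM in Lgr5 cells and 2057 and 2986 in Krt20 cells. In Krt20 cells colonocyte markers summed to 8488 and 8157 CPM in tissue and 2911 and 5055 in assembloids, and 5 cycling markers to 92.7 and 106 against 356 and 230 CPM. The 12 non-epithelial markers summed there to 3.46 and 4.11 CPM in tissue, with 7 and 6 at 0, and to 259 and 92.1 in assembloids, with none at 0. In Lgr5 cells they summed to 4.78 and 1.51 CPM in tissue, 148 and 111 in assembloids and 0.427 and 0.564 in organoids. The part of these differences in the levels below was not tested.

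In Lgr5 cells Cpt1a was lower in both cultures than in tissue, and Slc16a1 did not pass the test. Slc5a8, Ppara and Pdk4 passed the filter on low counts in this fit through the tissue libraries, so they are given by their levels, as a description with no test. Of the other 6 genes 2 were called between assembloids and tissue (Cpt1a lower and Pparg higher), against 36.8% of the 13768 genes tested. Between organoids and tissue 1 was called, Cpt1a, against 38.8% of genes in either direction and 19.2% lower. Between organoids and assembloids 2 were called, against 34.0%. None of the 3 counts lay above the share among all genes.

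Slc5a8 was at 131 and 160 CPM in Lgr5 cells of tissue, 0.297 and 1.36 in those of assembloids (2 and 12 UMIs) and 0.0827 and 0.0805 in those of organoids (12 and 6 UMIs). Ppara was at 17.6 and 20.2 CPM in tissue, 0.297 and 0.454 in assembloids (2 and 4 UMIs) and 1.04 and 1.41 in organoids. Pdk4 was at 13.3 and 6.55 CPM in tissue, 0.148 and 0.908 in assembloids (1 and 8 UMIs) and 0.0276 and 0.0268 in organoids (4 and 2 UMIs). Since tissue kept these 3 genes in the fit, their lower values in the cultures are a description only, and the assembloid values came from few UMIs.

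Cpt1a was at 73.7 and 88.7 CPM in Lgr5 cells of tissue, 16.8 and 31.8 in those of assembloids and 9.01 and 14.2 in those of organoids. Its log2 difference from tissue was -1.33 in assembloids (standard error 0.29, adjusted p = 0.00379) and -2.54 in organoids (standard error 0.29, adjusted p = 3.84e-05) by edgeR. Requiring 2 UMIs of Lgr5 left the assembloid difference short of the threshold (-0.97, adjusted p = 0.0612). Slc16a1 was at 53.6 and 58.4 CPM in Lgr5 cells of tissue, 37.5 and 47.9 in assembloids and 38.7 and 49.9 in organoids. In CPM both tissue libraries lay above all 4 culture libraries. After scaling its difference from tissue was 0.03 in assembloids (95% interval -0.48 to 0.54) and -0.06 in organoids (-0.56 to 0.44), with adjusted p of 0.939 and 0.861 in edgeR, and both signs turned under some alternatives.

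Pparg in Lgr5 cells was at 82.6 and 100.3 CPM in tissue, 119 and 192 in assembloids and 50.1 and 98.4 in organoids, which gave 1.17 on the log2 scale for assembloids over tissue (standard error 0.30, adjusted p = 0.0091 in edgeR's test). It lost its call without tissue replicate 1 (1.06, adjusted p = 0.139) or 2 (1.34, adjusted p = 0.0635) and without TMM (0.77, adjusted p = 0.0779). Acads, Acadm and Acadl in Lgr5 cells had log2 differences from tissue of -0.23, 0.16 and 0.62 in assembloids and -0.58, 0.12 and 0.27 in organoids, with adjusted p of 0.0886 to 0.742 in edgeR. Some alternatives called them. Acads was lower in organoids without TMM (-0.89, adjusted p = 0.0366), and Acadl was higher in assembloids with at most 20% mitochondrial counts (0.94, adjusted p = 0.0296) and without organoid replicate 1 (0.63, adjusted p = 0.0201) or 2 (0.66, adjusted p = 0.0164), and in organoids without organoid replicate 2 (0.60, adjusted p = 0.0361), all in edgeR.

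Between organoid and assembloid Lgr5 cells the log2 differences of the genes with more UMIs were -1.22 for Pparg (adjusted p = 0.00709) and -1.21 for Cpt1a (adjusted p = 0.00639) in edgeR. Both calls were lost without assembloid replicate 2 (-0.91 and -0.75) and without organoid replicate 1 (-0.89 and -1.004). Slc16a1 (-0.09, adjusted p = 0.795), Acads (-0.35, adjusted p = 0.401), Acadm (-0.04, adjusted p = 0.922) and Acadl (-0.36, adjusted p = 0.316) did not pass in edgeR. No fold is given for Slc5a8, Pdk4 and Ppara, whose values in these cells are those printed above, since their culture counts alone would not have kept them in the fit.

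In Krt20 cells 6 of the 8 genes other than Pdk4 were called between assembloids and tissue, 5 lower and Pparg higher, against 50.9% of the 15513 genes tested. Slc5a8 was at 223 and 255 CPM in tissue and 2.09 and 4.95 in assembloids, Ppara at 25.4 and 22.01 against 0.384 and 0.788, and Pdk4 at 7.095 and 7.095 against 0.157 and 0.689. The log2 differences were -5.68 for Slc5a8 and -4.93 for Ppara, with adjusted p of 0.000253 and 0.000271 by edgeR. With a library left out they ran from -6.33 to -5.19 for Slc5a8 and from -5.43 to -4.50 for Ppara. Pdk4, with 9 and 28 UMIs in assembloids, passed the filter on low counts through tissue and is given by its levels. The values of both groups lay far apart for Slc5a8 and Ppara.

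Slc16a1 in Krt20 cells was at 192 and 172 CPM in tissue and 36.2 and 48.3 in assembloids. The log2 difference was -1.67 (standard error 0.17, adjusted p = 0.000811 from edgeR). Cpt1a was at 114 and 109 CPM against 19.9 and 27.0, a log2 difference of -1.81 (standard error 0.16, adjusted p = 0.000593 from edgeR). Both calls held in all 10 alternatives. Pparg was at 128 and 149 CPM against 153 and 210, a log2 difference of 0.82 (adjusted p = 0.0100 from edgeR), lost without either tissue library (0.70 and 0.89, adjusted p = 0.136 and 0.0778) and without TMM (0.38, adjusted p = 0.159).

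The dehydrogenases in Krt20 cells showed values of -0.63 for Acads (adjusted p = 0.0642), -0.49 for Acadm (adjusted p = 0.0353) and 0.18 for Acadl (adjusted p = 0.317) in edgeR. Acadm alone was called, and lost the call in 6 of 10 alternatives, with adjusted p between 0.0503 and 0.260. Acads was called in 4 of 10, without TMM (-1.06, adjusted p = 0.0103), without assembloid replicate 2 (-0.97, adjusted p = 0.000448), with no filter (-0.59, adjusted p = 0.0310) and with the replicate block (-0.65, adjusted p = 0.0189) in edgeR. Without TMM the value of Acadl was -0.27.

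Krt20 and Lgr5 cells were then compared within each library. In tissue 8 of the 9 genes were higher in Krt20 cells, all but Pdk4, against 41.0% of the 15097 genes tested called in either direction and 21.5% called higher. The median over the 9 genes was 1.07 in tissue, with -0.05 over all genes. In assembloids Ppara and Pdk4 passed the filter of this fit through tissue, and Slc5a8 through tissue and Krt20 cells, where it was higher, so these 3 are given there by their levels alone. Of the other 6 genes 4 were higher in Krt20 cells of assembloids, against 29.9% of all genes called and 16.5% called higher. In this fit the library was a term of the model, so each library served as its own control. Its p-values rest on how the difference between gates varied from library to library.

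Slc16a1 rose most in tissue, from 53.6 and 58.4 CPM in Lgr5 cells to 192 and 172 in Krt20 cells, a log2 difference of 2.07 (standard error 0.12, adjusted p = 5.01e-05 from edgeR). In assembloids it stood at 37.5 and 47.9 CPM in Lgr5 cells and 36.2 and 48.3 in Krt20 cells, a difference of 0.29 (standard error 0.11, adjusted p = 0.0819). The assembloid difference was thus smaller by 1.78 on the log2 scale (95% interval 1.41 to 2.15), and the test of that gap between groups gave an adjusted p of 0.00378 with edgeR. In that test 8.68% of all genes were called, and Slc16a1 was called in all 10 alternatives. In assembloids the value itself was called with 2 UMIs required (0.61, adjusted p = 0.0104) and was -0.02 without TMM.

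Slc5a8 rose by 1.07 in tissue (standard error 0.09, adjusted p = 0.000188 by edgeR). That is a rise over Lgr5 cells alone. In the whole tissue libraries Slc5a8 was at 231 and 231 CPM, against 223 and 255 in their Krt20 cells. In assembloids it was at 0.297 and 1.36 CPM in Lgr5 cells, from 2 and 12 UMIs, and at 2.09 and 4.95 CPM in Krt20 cells, from 120 and 201. Both assembloid levels in Krt20 cells were far below the 131 and 160 CPM of Lgr5 cells in tissue. The dehydrogenases rose in both groups. In tissue the log2 differences were 1.30 for Acads, 1.48 for Acadm and 1.32 for Acadl, with adjusted p of 8.08e-05 to 0.000108, and in assembloids 0.86, 0.75 and 0.80, with adjusted p of 0.000823 to 0.00221 in edgeR. Acads in assembloids lost its call without the library term (0.85, adjusted p = 0.0844).

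Pparg rose by 0.96 in tissue (adjusted p = 0.000281) and 0.55 in assembloids (adjusted p = 0.00357), Cpt1a by 0.83 in tissue (adjusted p = 0.00224) and Ppara by 0.69 in tissue (adjusted p = 0.0395) in edgeR. Ppara lost that call in 5 of 10 alternatives. Pparg in assembloids lost it without the library term (0.54, adjusted p = 0.123) and without TMM (0.24, adjusted p = 0.0730). The assembloid value of Cpt1a (0.29, adjusted p = 0.154) did not pass. Pdk4 had a difference of -0.10 in tissue (95% interval -1.01 to 0.80). In assembloids Ppara had 2 and 4 UMIs in Lgr5 cells and 22 and 32 in Krt20 cells, and Pdk4 had 1 and 8 and 9 and 28, and no fold is given for either here. Some fitted values of these genes under alternatives are recorded further below, with nothing rested on them. Of the gaps between groups, those of Acadm (-0.73, adjusted p = 0.0314) and Acadl (-0.52, adjusted p = 0.0427) were also called by edgeR. They lost the call in 2 of 10 and 7 of 10 alternatives. The gaps of Cpt1a (-0.54, adjusted p = 0.125), Acads (-0.44, adjusted p = 0.0688) and Pparg (-0.41, adjusted p = 0.0885) did not pass in edgeR.

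**Figure D3:**
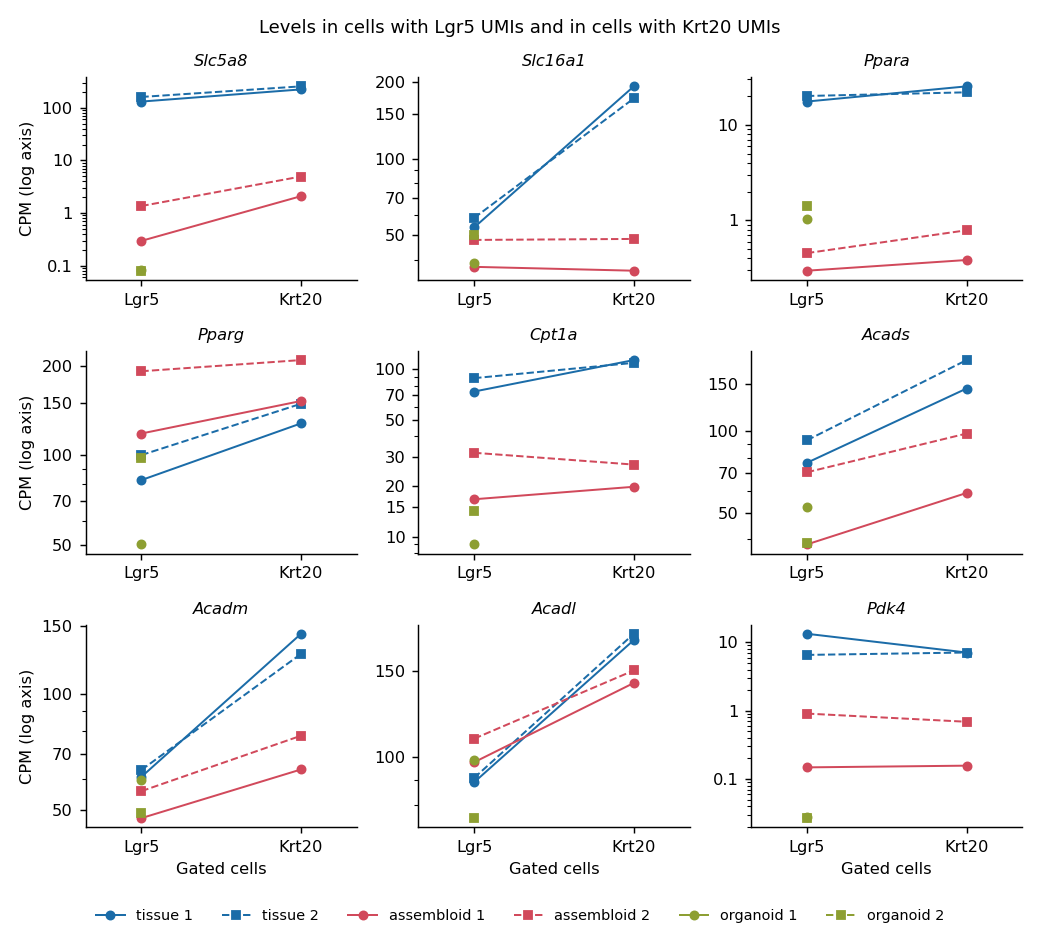
Level of each gene in CPM (log axes that differ by panel) in cells with Lgr5 and no Krt20 UMIs and in cells with Krt20 and no Lgr5 UMIs. Lines join the 2 gates of a library, and organoids are drawn for the Lgr5 gate alone. Slc16a1 climbs from 53.6 and 58.4 to 192 and 172 in tissue and stays between 36.2 and 48.3 in assembloids.

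The wider pathway was read from 6 lists that hold none of the 9 genes, on the TMM scale only. Over all genes, 23.3% were called lower and 27.1% higher in assembloids than in tissue, 23% lower and 24.4% higher in organoids, and the medians were 0.03 and 0.06, against which each list is to be read. Among 18 genes of mitochondrial beta-oxidation, 4 were lower and 2 higher in assembloids than in tissue, with a median log2 difference of -0.36, and 9 were lower and 2 higher in organoids, with a median of -0.65. Acsl1, an acyl-CoA synthetase, was at 43.3 ± 2.50 CPM in tissue and 8.93 ± 1.28 in assembloids (SD, n = 2 each). Acsl3 was lower in assembloids (-0.85 on the log2 scale) and Acsl4 higher in assembloids (1.48) and organoids (1.53). In organoids Slc25a20, the carnitine-acylcarnitine carrier of the inner membrane, and Acadvl, the very-long-chain dehydrogenase, were lower by log2 differences of -2.22 and -1.43 (adjusted p of 6.00e-05 and 0.000796 in edgeR). Of 10 peroxisomal genes, 5 were lower and 1 higher in assembloids and 4 lower in organoids.

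Of 5 genes of ketone body synthesis and use, 1 was lower and none higher in assembloids than in tissue, and 1 was lower and none higher in organoids.

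Of 17 listed PPAR partners and target genes 14 could be tested, with 5 lower and 3 higher in assembloids and 7 lower and 1 higher in organoids. The coactivators Ppargc1a and Ppargc1b, which raise mitochondrial gene expression, were lower in assembloids by log2 differences of -2.04 and -2.27, and Ppargc1a in organoids by -3.45. Fabp2, a fatty acid binding protein, was at 174 and 217 CPM in tissue, 25.5 and 54.5 in assembloids and 2.43 and 1.98 in organoids. Plin2, which coats lipid droplets, was lower in organoids (-2.31, adjusted p = 8.24e-05 from edgeR). The list median was -0.16 in assembloids and -0.84 in organoids.

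Of 11 genes of pyruvate entry, 2 were lower and 3 higher in assembloids and 3 lower and 1 higher in organoids, with medians of -0.02 and -0.19. Pdk1, another pyruvate dehydrogenase kinase, was at 25.7 and 19.9 CPM in tissue, 61.3 and 70.1 in assembloids and 41.0 and 72.4 in organoids, opposite to Pdk4. Its log2 differences were 1.90 and 1.52 (adjusted p of 0.000352 and 0.00096 in edgeR). Pdk3 was higher in assembloids (0.75), and Mpc2, a subunit of the pyruvate carrier, was lower in both cultures (-0.93 and -0.92).

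Short-chain fatty acid handling had the lowest medians of the lists, -2.02 in assembloids and -1.78 in organoids. Of its 12 genes 11 could be tested, with 7 lower and 2 higher in assembloids and 9 lower and 1 higher in organoids. The anion exchanger Slc26a3, also one of the 8 colonocyte markers, was at 189 ± 13.2 CPM in tissue, 16.2 ± 4.11 in assembloids and 0.900 ± 0.0211 in organoids (SD, n = 2 each). Acss1, a mitochondrial acetyl-CoA synthetase, was lower in both cultures (-2.31 and -1.15). Slc16a3, the lactate exporter MCT4, went the other way, from 0.617 and 0.460 CPM in tissue to 68.2 and 76.0 in assembloids and 40.8 and 76.9 in organoids. Its log2 differences were 7.42 (standard error 0.33, adjusted p = 9.17e-06) and 6.95 (standard error 0.32, adjusted p = 4.43e-06) by edgeR.

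**Figure D4:**
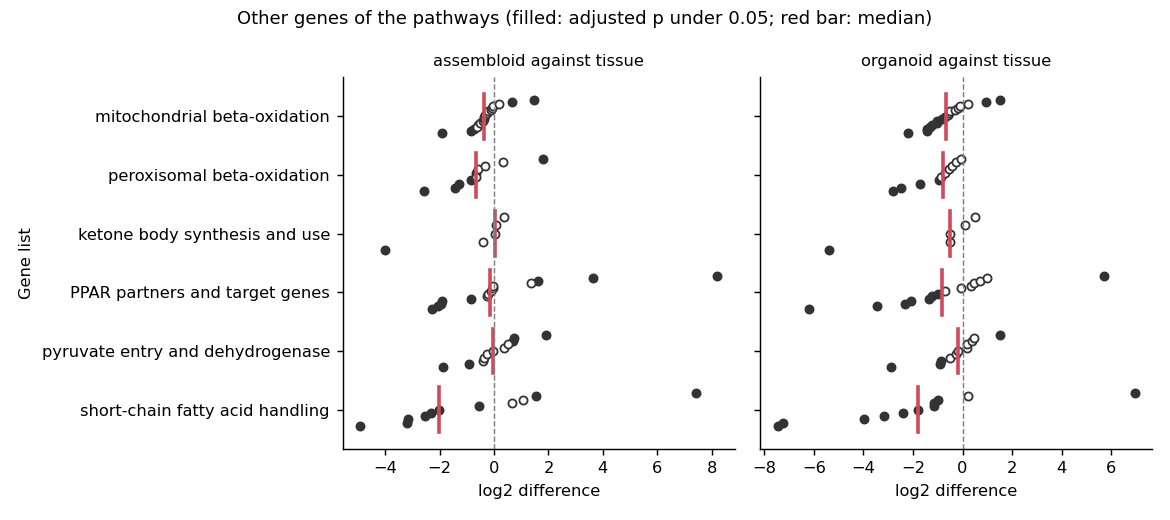
Log2 difference of assembloids (left) and organoids (right) from tissue for the tested genes of 6 lists, which hold none of the 9 genes. Filled points had an adjusted p under 0.05 and the red bar is the list's median. The median of short-chain fatty acid handling was -2.02 in assembloids and -1.78 in organoids, while the rightmost point of that list, at 7.42 and 6.95, is Slc16a3.

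Across the 6 libraries the gene whose level followed most closely is given for 8 of the 9 genes, searched among the 4591 genes whose mean log2 CPM reached 5. Pearson r on log2 CPM was 0.999 for Slc5a8 with Pof1b, 0.997 for Slc16a1 with Cyb561, 0.997 for Ppara with Pla2g10os and 0.999 for Cpt1a with Tmco3. It was 0.992 for Acads with Cd63, 0.989 for Acadm with Ginm1, 0.989 for Acadl with Vti1b and 0.999 for Pdk4 with Clca1, which is one of the goblet markers. The 6 points are 3 groups of 2 libraries that also differ in depth, so these values are descriptions. That of Pdk4 takes in organoid levels from 5 and 3 UMIs.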

How the data were processed

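Epithelial cells of mouse colon were profiled with 10x Genomics 3' kits in 6 libraries, 2 for each of 3 groups. What the authors deposited are raw counts of UMIs for each gene in each barcode, with no normalization. The submitters' processing notes name Cell Ranger 6 and mm10, the file headers name a later release, and whether intron reads were counted is not given in the sources used here. The whole numbers in the matrices were read with NumPy 2.4.6 and SciPy 1.17.1, and gene positions came from GENCODE M21 (GRCm38). Doublets were neither called nor removed. Sums of UMIs over the cells of a library, or of a gate in a library, were tested with edgeR 4.0.16 in R 4.3.3: filterByExpr, TMM, glmQLFit, glmQLFTest and Benjamini-Hochberg adjustment over all genes tested. Standard errors are the log2 difference over the root of F. The test was run on simulated data first. A gate needed 50 cells in both libraries of a group, which left organoids out of the Krt20 comparisons. Groups with values entered one fit, and gate against gate was fitted with the library as a term.

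The genes and lists were chosen with earlier results of these data known. All 9 genes are named, and in gates Slc5a8, Ppara and Pdk4 by level alone where too rare outside tissue. Fitted values of these genes recorded further below for such gates are descriptions, on which nothing is rested. Pdk4 is also given by level alone in whole organoid libraries. Of each list, up to 3 called genes with the largest log2 difference from tissue and a mean log2 CPM over 4 or equal to it are named, and, for each of the 9 genes, the gene with the highest Pearson r over the 6 libraries among those whose mean log2 CPM reached 5. Some genes that this rule names are not reported here. Alternatives were DESeq2 1.42.0, no filter on low counts, a replicate block, no TMM, other cell filters (at most 5% or 20% mitochondrial counts, at least 1000 genes, all cells kept, cells thinned to 2000 UMIs), a gate of 2 UMIs, no library term and each library left out. The use of no TMM within gates and the gate on the 12 non-epithelial markers were chosen after seeing the data. The 2 stromal libraries of assembloids were not used. The study's own cell sets and integrated clusters were not rebuilt, and cell numbers here differ from its own. The libraries here held more cells than the study states for assembloids (27849 and 6919). They held fewer for tissue (4682 and 4303) and organoids (4871 and 7962).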

Additional observations from a re-analysis of the deposited data

Results flagged for a closer look

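For 3 genes the rise from Lgr5 to Krt20 cells differed between assembloids and tissue by a test of that difference in edgeR, which called 8.68% of all genes. Slc16a1, the carrier MCT1, rose less in assembloids by a log2 difference of -1.78 (standard error 0.16, adjusted p = 0.00378), and every alternative kept the call. Acadm rose less by -0.73 (adjusted p = 0.0314) and Acadl by -0.52 (adjusted p = 0.0427) in edgeR's test. Acadm lost the call in 2 of 10 alternatives, without tissue replicate 1 (adjusted p = 0.186) and without the library term (adjusted p = 0.141). Acadl lost it in 7 of 10, among them without any single library (adjusted p of 0.0834 to 0.186). The fitted gap of Slc5a8 was 1.31, a description with no test, since its level in Lgr5 cells of assembloids rested on 2 and 12 UMIs and it was kept in the fit through the cells where it was higher. The median Krt20 cell held 15560 and 10650.5 UMIs in tissue and 5632 and 17014.5 in assembloids, and the part of depth in these differences was not tested.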

How the results depend on the processing

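Of 1104 values of the 9 genes under alternatives, 965 kept their direction and their side of the threshold, 59 lost the call, 33 gained it and 47 changed sign. Each changed sign belonged to a gene that had not passed the test. The cause of these changes was not tested. Slc5a8, Ppara, Cpt1a and Slc16a1 kept their calls against tissue in whole libraries in all 16 alternatives for each culture, and Pdk4 did so for assembloids. For Slc5a8, Ppara and Pdk4 nothing is rested on the runs with no filter or with thinned cells. Culture UMIs alone need not have kept these genes there. In Lgr5 cells with 2 UMIs required, Ppara, Pdk4 and Slc5a8 held at most 3 UMIs per assembloid library and no fold was computed.

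Without TMM the sign turned for Acadl in assembloids against tissue (-0.068, and -0.27 in Krt20 cells) and for Slc16a1 in organoids against assembloids (0.11, and 0.0497 in Lgr5 cells). In Lgr5 cells it turned for Acadm (-0.26) and Slc16a1 (-0.39) in assembloids against tissue, Acadm (-0.19) and Acadl (-0.047) in organoids against tissue and Acadm (0.071) in organoids against assembloids. Between gates of assembloids it turned for Cpt1a (-0.023), Pdk4 (-0.29) and Slc16a1 (-0.018). The value of Pdk4 is printed only as a record of the turn, since Lgr5 cells of assembloids held 1 and 8 of its UMIs. Nothing is rested on it, nor on the other values of Pdk4 between these gates in this section. The runs without TMM in gates were chosen after seeing the data. Over both comparisons of organoids with assembloids, 45.3% and 46.0% of calls were for higher genes with TMM, and 54.1% and 51.5% without it.

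With no filter on low counts Slc16a1 turned to 0.0092 in organoids against assembloids and, in Lgr5 cells, to 0.10 against tissue and 0.088 against assembloids, Pparg to 0.11 against tissue and Acadm to 0.14 against assembloids. With 2 UMIs required, Acads turned to 0.12 in assembloids against tissue, Pparg to 0.032 and Slc16a1 to 0.11 in organoids against tissue, and Acadm to 0.17 in organoids against assembloids, where 3 of the 9 genes and 2270 of all genes were then called. With at most 5% mitochondrial counts Pparg turned to 0.0057 in organoids against tissue and Slc16a1 to 0.012 in organoids against assembloids. With all cells kept that value of Slc16a1 was 0.074. With at most 20% mitochondrial counts Slc16a1 was -0.047 in Lgr5 cells of assembloids against tissue, and 2532 genes were called in the gap between groups, against 1311. Thinning cells to 2000 UMIs left 6278 genes called in assembloids and 6039 in organoids against tissue and 6548 between the cultures, against 9750, 9153 and 10428. Between gates of assembloids DESeq2 called 2859 genes, against 4514. Without the library term 2024 genes and 3 of the 9 were called there, Pdk4 turned to -0.13, and 142 genes and 1 of the 9, Slc16a1, were called in the gap between groups.

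Leaving out each library in turn gave 5547 to 10473 genes called in assembloids against tissue, 5343 to 9750 in organoids against tissue, 2147 to 5030, 2187 to 6153 and 2469 to 4342 in the Lgr5 comparisons (assembloid and organoid against tissue, organoid against assembloid), 3808 to 9286 in Krt20 cells, 3106 to 7227 between gates of tissue and 184 to 2364 in the gap between groups. The lowest count came without tissue replicate 1 in each of these but Lgr5 cells of organoids against assembloids, where it came without organoid replicate 1. The counts of the 9 genes that follow come from fits with 1 library in a group and are not read as results about the set. They include Pdk4 in whole organoid libraries, and Slc5a8, Ppara and Pdk4 in Lgr5 cells. With every library kept, 54.0% of all genes were called in organoids against assembloids. Of the 9 genes, 4 to 8 were called in organoids against assembloids, 3 to 6 in Lgr5 cells of assembloids against tissue, 0 to 4 in Lgr5 cells of organoids against assembloids and 1 to 3 in the gap between groups. The 8 came without organoid replicate 1, the 3 without tissue replicate 1 and the 0 without assembloid replicate 2. Values that crossed 0 ran from -0.76 to 0.020 for Acadl and -0.51 to 0.013 for Pparg in organoids against tissue, and from -0.58 to 0.085 for Acadm and -0.16 to 0.12 for Slc16a1 in organoids against assembloids. In Lgr5 cells they ran from -0.62 to 0.095 for Acads and -0.054 to 0.13 for Slc16a1 in assembloids against tissue. In those of organoids against tissue they ran from -0.16 to 0.41 for Acadm, -0.073 to 0.60 for Acadl, -0.40 to 0.30 for Pparg and -0.079 to 0.037 for Slc16a1. Against assembloids they ran from -0.31 to 0.22 for Acadm, -0.72 to 0.092 for Acads and -0.14 to 0.038 for Slc16a1. Between gates Pdk4 ran from -0.52 to 0.47 in tissue and -0.014 to 0.41 in assembloids, and in the gap Ppara ran from -0.085 to 0.47 and Pdk4 from -0.40 to 0.59. Nothing is rested on these assembloid and gap values. Lgr5 cells of assembloids held 1 and 8 UMIs of Pdk4 and 2 and 4 of Ppara.

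Libraries of the same number deviated together with a correlation of 0.23 for assembloid with organoid, 0.28 for assembloid with tissue and -0.20 for organoid with tissue, so a pairing by number was not shown. With the replicate block 6, 6 and 5 of the 9 genes were called in whole libraries, 5, 4 and 4 in Lgr5 cells and 7 in Krt20 cells. All genes called then numbered 9592, 8964 and 10243 in whole libraries, 4980, 5261 and 4465 in Lgr5 cells and 7697 in Krt20 cells. The replicate block lost Ppara in Lgr5 cells of organoids against assembloids, for which no fold is given, and Acadm in Krt20 cells (-0.49, adjusted p = 0.0521 in edgeR), and gained Acads there (-0.65, adjusted p = 0.0189). Pdk4, Ppara and Slc5a8 held 1 to 12 UMIs per library in Lgr5 cells of assembloids. The counts of the 9 genes in gates in this section include these 3. Nothing is rested on them where Lgr5 cells of a culture enter, nor on Pdk4 in Krt20 cells of assembloids. In this section the counts for whole organoid libraries include Pdk4, on which nothing is rested either.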

Other observations

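The assembloid barcodes left out because non-epithelial markers exceeded epithelial ones (1561 and 803 cells) held Slc5a8 at 0.247 and 0.307 CPM, from 2 and 3 UMIs, below the epithelial cells of the same libraries (1.44 and 2.87). Ppara was at 1.60 and 1.54 CPM there and Pdk4 at 2.10 and 1.95, both above the epithelial cells (0.481 and 0.753, and 0.244 and 0.578). Pparg was at 46.7 and 48.6 CPM, against 129 and 192 in the epithelial cells. Cpt1a was at 14.6 and 14.6 CPM and Slc16a1 at 28.7 and 30.7. No test was run on these cells.

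Organoids held 18 and 7 cells with Krt20 and no Lgr5 UMIs. In the 18 cells of replicate 1 Slc5a8 had 6 UMIs, Ppara 8, Pdk4 0, Slc16a1 44, Cpt1a 15, Acadm 74 and Pparg 125. In the 7 cells of replicate 2 Slc5a8, Ppara and Pdk4 had 0, Slc16a1 5, Cpt1a 4, Acadm 12 and Pparg 28. For Slc5a8 the 6 UMIs are 12.7 CPM, against 0.0827 CPM in the Lgr5 cells of the same library. These 6 UMIs lay in 11.1% of the 18 cells, and so did the 8 of Ppara, so the level is not that of most of these cells. The 5 enteroendocrine markers summed to 2016 and 4025 CPM in these Krt20 cells and to 1.76 and 3.25 CPM in the Lgr5 cells of organoids, and their part in the difference was not tested.

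Genes of the wider pathway also differed between the gates. In tissue, of 18 genes of mitochondrial beta-oxidation 10 were higher and 1 lower in Krt20 than in Lgr5 cells (median log2 difference 0.80), and of 10 peroxisomal genes 6 were higher and none lower. Of 11 genes of pyruvate entry 8 were higher and none lower, of 5 ketone body genes 2 were higher, of 12 tested PPAR partners and targets 6 were higher and 1 lower, and of 10 tested genes of short-chain fatty acid handling 3 were higher and 4 lower. Over all genes of the same edgeR fit 21.5% were called higher and 19.5% lower, and the median was -0.05. In assembloids 11 genes of mitochondrial beta-oxidation were higher and 1 lower (median 0.47), 4 peroxisomal genes were higher and none lower, and 4 genes of pyruvate entry were higher and none lower. Of the ketone body genes 1 was higher and 1 lower, of the PPAR partners and targets 4 were higher and none lower, and of short-chain fatty acid handling 5 were higher and 1 lower (median 0.52, and -0.42 in tissue). Over all genes 16.5% were called higher in assembloids, with a median of -0.01. Whether the lists differed between the groups was not tested.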
